A study of Homo sapiens with 6 samples.

Results

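Genes switched on by ERK signalling, among them the genes that damp the pathway in return, were examined in 6 bulk RNA-seq libraries of A375 cells. A375 is a human melanoma line driven by an activating BRAF mutation. The members were 10 genes chosen by name (DUSP4, DUSP5, DUSP6, SPRY2, SPRY4, SPRED1, SPRED2, ETV4, ETV5 and PHLDA1), out of 58302 Ensembl gene IDs in the count tables. All 10 were matched by symbol and all 10 received a test, among 18836 genes that did.

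The 3 control libraries came from A375 cells stably carrying an empty vector, and the other 3 from A375 cells stably overexpressing HMGB2 (HMGB2OE), a chromatin protein that bends DNA. Both lines were made from A375 by lentiviral transduction, and polyadenylated RNA was sequenced. No drug or mechanical treatment is given in the labels for either group. The study's reporting form calls the replicates of a group technical, so p-values here measure the spread between cell pellets of a line and not between separate transductions.

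In the MAPK pathway, RAS activates RAF, RAF activates MEK and MEK activates ERK. Active ERK induces its own inhibitors: the dual-specificity phosphatases of the DUSP family remove phosphate from ERK, Sprouty proteins (SPRY) restrain the pathway at or above RAF, and SPRED proteins bring the RAS inactivator NF1 to the membrane. ETV4 and ETV5 are transcription factors of the PEA3 group of ETS proteins, and PHLDA1 is a pleckstrin homology-like protein induced by ERK. In melanoma with mutant BRAF these transcripts are widely used as a readout of ERK activity.

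One way in which ERK reaches some of these genes is through CIC, a repressor that ERK removes from its target promoters. Promoter sequences before the annotated start were therefore searched, and a match is a description of letters, not a binding site. RefSeq windows of 250 bases (GRCh38.p14) were searched for 6 members with 9 starts (DUSP6, PHLDA1, SPRED1, SPRED2, SPRY2 and SPRY4). DUSP4, DUSP5, ETV4 and ETV5 were not in the table. Motifs were searched on both strands: the CIC octamer in the broad form TNAATGNA, the ETS core GGAAGT, the AP-1 heptamer TGANTCA and the CRE octamer TGACGTCA. The CIC octamer was found in the window of DUSP6 only, with its first base 24 bases before the start, against 9.77% of 35116 RefSeq windows. The ETS core was found in 1 of the 3 windows of SPRY2, against 19.5% of all windows. No searched member window held the AP-1 heptamer (6.57% of all windows) or the CRE octamer (1.65%). These 2 windows are shown because they alone of those searched held a match, and no match overlapped another. The letters are those of the strand of the gene, with the match in capitals. Each match is the reverse complement of its searched form. The DUSP6 window (chr12:89352502-89352751, minus strand) lies in the exon of the long non-coding RNA gene ENSG00000274021, which runs the other way. The SPRY2 window (chr13:80340109-80340358, minus strand) lies before an internal RefSeq start and within the intron of SPRY2 in GENCODE.
DUSP6: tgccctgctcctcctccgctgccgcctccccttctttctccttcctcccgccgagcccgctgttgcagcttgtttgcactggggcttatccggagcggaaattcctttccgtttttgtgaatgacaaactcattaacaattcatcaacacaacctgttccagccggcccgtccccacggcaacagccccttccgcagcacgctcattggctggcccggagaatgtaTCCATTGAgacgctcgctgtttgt
SPRY2: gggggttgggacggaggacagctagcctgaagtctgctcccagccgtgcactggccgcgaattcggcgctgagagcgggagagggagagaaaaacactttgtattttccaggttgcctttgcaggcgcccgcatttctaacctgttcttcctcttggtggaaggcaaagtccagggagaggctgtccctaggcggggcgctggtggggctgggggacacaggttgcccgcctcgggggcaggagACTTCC

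Libraries held between 45925053 and 56755212 reads assigned to genes, and every member had over 2000 normalized counts in each of them. Normalized counts are read counts divided by a DESeq2 size factor. The overexpressed gene was examined first. HMGB2 had normalized counts of 7250, 7729 and 7562 in empty vector replicates 1, 2 and 3, and of 15095, 16848 and 14609 in overexpression replicates 1, 2 and 3. The groups did not overlap and HMGB2 was higher by 1.05 on the log2 scale (SE 0.10, DESeq2 adjusted p = 4.4e-22), in the direction of the labels. Empty vector replicate 3 differed from the other control libraries. KRT5, a keratin fixed as a marker of other cell types, had normalized counts of 5.1 and 11.5 in empty vector replicates 1 and 2, 279 in replicate 3, and 200 to 289 with overexpression. MITF, which marks the melanocyte lineage, was detected in every library with normalized counts of 1381 to 1719, as was S100B (3346 to 3841). Other markers of that lineage were low in the counts used. The pigment enzyme TYR had at most 1, DCT at most 5.6, MLANA 3.4 to 10.8 and TYRP1 7.5 to 21.3. PMEL (49.6 to 67.0) and S100A1 (105 to 181) kept only 3.37% and 1.82% of the reads in the strand-specific count columns. SOX10 was listed at 0 in the counts used, which set aside reads shared with a gene on the opposite strand. The strand-specific count columns assigned 28863 to 56464 reads per library to SOX10. These reads may come from either gene, so the 0 does not measure the level of SOX10. POLR2F, on the opposite strand, overlaps 5.39% of the annotated exon bases of SOX10. Why no SOX10 read was kept was not tested. Among the markers of other cell types, the leukocyte marker PTPRC was at 0 and ALB and CD3E had at most 1.8, while KRT14 (421 to 694), EPCAM (212 to 372) and PECAM1 (25.7 to 55.4) had counts in every library. What part the spread of empty vector replicate 3 has in any result was not tested, and the members' log2 fold changes without it are given beside the results.

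With HMGB2 overexpression, the ERK feedback genes did not move as a group. DUSP4, a nuclear phosphatase of ERK and other MAP kinases, was higher, DUSP5, a nuclear phosphatase specific for ERK, was lower, and the other 8 members did not pass the test. The count of 2 called of 10 stands beside 4.94% of all 18836 genes tested (2.29% called higher and 2.64% called lower), and beside 6.12% of the 4870 genes with a mean of at least 2000 normalized counts, as every member had. Of the 10 log2 fold changes, 5 were positive and 5 negative, with a median of 0.00, equal to the median of 0.00 over all genes tested. The groups of libraries did not overlap for 2 of 10 members, against 22.8% of 16692 genes with a mean of at least 10 and 22.9% of those with at least 2000, so that separation of the groups was no more frequent than among genes at large. Transcript levels were measured in bulk, where fewer cells with a transcript and less RNA per cell cannot be told apart.

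**Figure D1:**
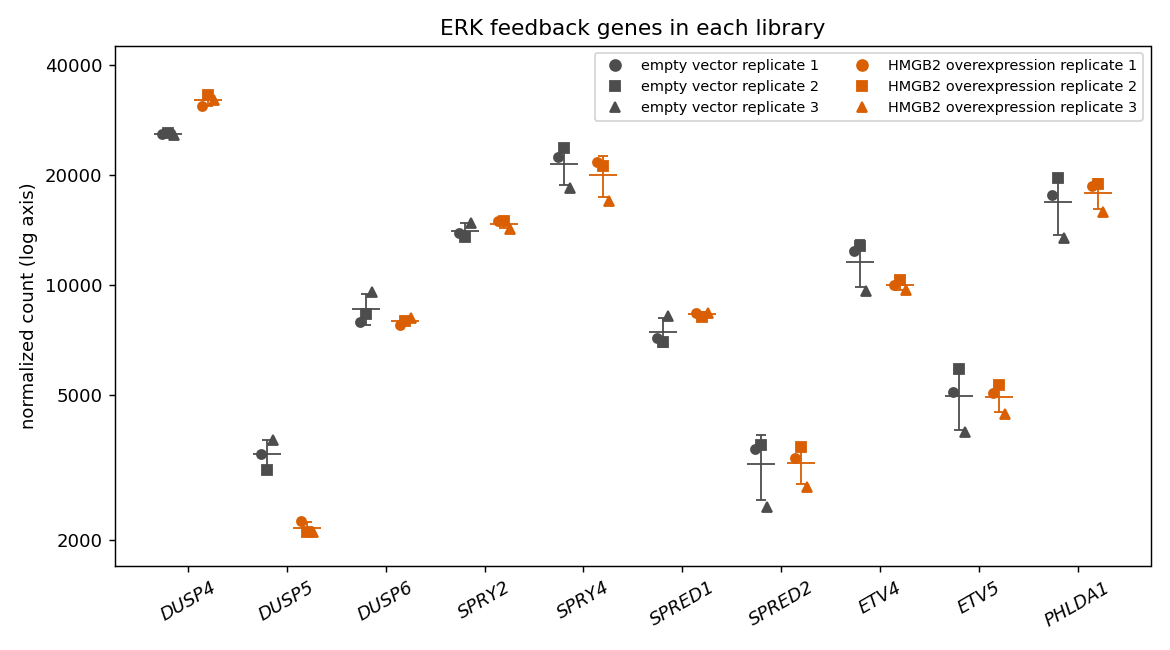
Normalized counts (vertical log axis) of the 10 members in each library, with empty vector libraries in grey and HMGB2 overexpression libraries in orange. Marker shape gives the replicate, and bars give mean ± SD of 3 libraries. The groups are apart for DUSP4 and DUSP5 and overlap for the other members.

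Levels differed between members by more than they differed between groups. Per kilobase of annotated exon, the mean normalized count in empty vector libraries was highest for SPRY2 (4372 ± 205, SD, n = 3), followed by DUSP4 (3549 ± 24), ETV4 (3289 ± 484), SPRY4 (3271 ± 414), PHLDA1 (2850 ± 534), DUSP6 (2225 ± 218), DUSP5 (1355 ± 130), SPRED1 (960 ± 86.7), ETV5 (861 ± 167) and SPRED2 (585 ± 119). DUSP4 through DUSP6 in this order overlapped with their neighbours, as did SPRED1 with ETV5, while SPRY2, DUSP5 and SPRED2 overlapped with no neighbour. The levels of DUSP6, PHLDA1 and ETV4 are lower limits, because the counts kept 51.2%, 49.9% and 80.8% of the reads that the strand-specific columns assigned to them. The order, with its top places and overlaps, therefore holds for the counts used only, and the places of these genes are not settled. With overexpression SPRY2 (4568 ± 128) and DUSP4 (4396 ± 151) remained the highest per kilobase in these counts. DUSP5 (851 ± 33.3) overlapped with ETV5 (854 ± 78.8), which it exceeded in every empty vector library.

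The phosphatases moved in opposite directions. DUSP5 (ENSG00000138166; hg38 chromosome 10, 110497907 to 110511533, plus strand) had normalized counts of 3445, 3100 and 3759 with the empty vector, and of 2254, 2111 and 2105 with overexpression. Every overexpression library lay below every empty vector library. DUSP5 fell by 37.2% (log2 fold change -0.67, SE 0.11, 95% interval -0.89 to -0.45, DESeq2 adjusted p = 5.48e-07). It was called under all 13 alternatives tried, with adjusted p between 9.78e-12 and 0.0116. Without empty vector replicate 3 the log2 fold change was -0.60 (adjusted p 6.22e-08).

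DUSP4 (ENSG00000120875; hg38 chromosome 8, 29333064 to 29350684, minus strand) had the highest count of the members in the column used. That column kept 49.9% of the reads that the strand-specific columns assigned to PHLDA1. The dropped reads may come from PHLDA1 or from a gene on the opposite strand. The normalized counts of DUSP4 were 25840, 25974 and 25628 with the empty vector, and 30847, 33044 and 32029 with overexpression. All counts with overexpression were above all those with the empty vector, and the control libraries spanned less than those with overexpression (SD 174 against 1100). DUSP4 rose by 23.9% (log2 fold change 0.31, SE 0.08, 95% interval 0.14 to 0.47, DESeq2 adjusted p = 0.00831). The size stayed between 0.28 and 0.33 under all alternatives, but the call depended on them. EdgeR's quasi-likelihood test did not call it (adjusted p 0.0733), nor did DESeq2 when a single library was left out, be it empty vector replicate 1 (0.270), empty vector replicate 2 (0.187) or overexpression replicate 1 (0.216), 2 (0.329) or 3 (0.220). In those fits with a library left out, fewer genes were called in general. They gave 155 to 213 higher and 208 to 262 lower, against 432 and 498 with all libraries. DUSP4 was called without empty vector replicate 3 (0.00179), in replicates 1 and 2 alone (7.65e-06) and with the replicate number as a block (9.13e-05). More genes were called in general there, up to 1334 higher and 1520 lower.

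DUSP5 and DUSP4 were also set against each other within each library, a comparison chosen after their values were seen, which needs no scaling between libraries. Empty vector libraries held 13.3, 11.9 and 14.7 DUSP5 reads per 100 DUSP4 reads, and overexpression libraries held 7.31, 6.39 and 6.57. The ratio went from 13.3 ± 1.37 to 6.75 ± 0.486 (SD, n = 3 each), and the groups did not overlap. Since the pair was chosen for its opposite changes, this separation is a description and was not tested. Neither gene overlaps another annotated gene, and none of their 50-base words occurs in another gene.

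DUSP6, the cytoplasmic phosphatase of ERK, whose promoter is printed above, did not follow either of them. DUSP6 (hg38 chromosome 12, 89347235 to 89352501, minus strand) had normalized counts of 7900, 8335 and 9526 with the empty vector and of 7774, 7940 and 8080 with overexpression. The overexpression libraries lay close together, at the lower end of the empty vector range. The log2 fold change was -0.11 (95% interval -0.33 to 0.10, DESeq2 adjusted p = 0.742), and -0.03 without empty vector replicate 3. ENSG00000274021 covers 28.6% of its exon bases from the opposite strand. In the sum of the stranded columns, where these reads are kept but may come from either gene, the log2 fold change was -0.16 (DESeq2 adjusted p = 0.587).

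Neither Sprouty member passed the test. SPRY2 (hg38 chromosome 13, 80335976 to 80341126, minus strand) had normalized counts of 13827, 13529 and 14789 with the empty vector and of 14901, 14931 and 14202 with overexpression. These ranges overlapped, and the log2 fold change of 0.06 had a 95% interval of -0.11 to 0.24 (DESeq2 adjusted p = 0.857). Leaving out empty vector replicate 3 gave 0.10. SPRY4 (hg38 chromosome 5, 142310427 to 142326455, minus strand) had 22339, 23593 and 18397 with the empty vector and 21676, 21105 and 16968 with overexpression. In both groups replicate 3 was the lowest. The log2 fold change of SPRY4 was -0.11 (95% interval -0.39 to 0.17, DESeq2 adjusted p = 0.843). It was -0.20 without empty vector replicate 3 and 0.00 without overexpression replicate 3, and neither fit called it.

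SPRED1 (hg38 chromosome 15, 38252836 to 38357249, plus strand) had normalized counts of 7128, 6979 and 8210 with the empty vector and of 8350, 8157 and 8364 with overexpression. Empty vector replicate 3 lay within the overexpression range, and the other control libraries lay below it. The log2 fold change was 0.16 (95% interval -0.05 to 0.36, DESeq2 adjusted p = 0.555). Without empty vector replicate 3 it was 0.23 and SPRED1 was called (adjusted p 0.0265), as it was in replicates 1 and 2 alone (0.0034). The fit without empty vector replicate 3 called 17.8% of all genes tested, against 4.94% with all libraries. No other fit that left out 1 library called SPRED1. SPRED2 (hg38 chromosome 2, 65310851 to 65432637, minus strand) had 3559, 3637 and 2470 with the empty vector and 3355, 3590 and 2800 with overexpression. Its log2 fold change was 0.01 (95% interval -0.32 to 0.35, DESeq2 adjusted p = 0.991), and the low value in each group was again that of replicate 3. Leaving out empty vector replicate 3 turned the sign (-0.15, not called).

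Of the ETS factors, ETV4 (hg38 chromosome 17, 43527844 to 43579620, minus strand) had normalized counts of 12340, 12727 and 9609 with the empty vector. With overexpression its counts were 9985, 10293 and 9684. Empty vector replicate 3 was the lowest of all 6 libraries, while the other control libraries lay above all overexpression libraries. The log2 fold change was -0.21 (95% interval -0.47 to 0.04, DESeq2 adjusted p = 0.500). Without empty vector replicate 3 it was -0.33 and ETV4 was called lower (adjusted p 0.000987), and in replicates 1 and 2 alone it was -0.31 (1.05e-05). These calls stand beside 17.8% of all genes called in the fit without empty vector replicate 3, so calls were much more frequent there in general.

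ETV5 (hg38 chromosome 3, 186046314 to 186110318, minus strand) had normalized counts of 5092, 5865 and 3946 with the empty vector and of 5062, 5302 and 4422 with overexpression. Its log2 fold change was -0.01 (95% interval -0.32 to 0.30, DESeq2 adjusted p = 0.991), and -0.15 without empty vector replicate 3. PHLDA1 (hg38 chromosome 12, 76025447 to 76031776, minus strand) had 17580, 19581 and 13395 with the empty vector and 18605, 18823 and 15853 with overexpression. Its log2 fold change was 0.08 (95% interval -0.23 to 0.38, DESeq2 adjusted p = 0.909), and -0.06 without empty vector replicate 3, not called. Both were lowest in replicate 3 of each group. PHLDA1-AS1 overlaps PHLDA1 from the opposite strand, and in the sum of the stranded columns the log2 fold change was -0.06 (DESeq2 adjusted p = 0.933).

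The third replicates set much of the spread among the members that did not pass. SPRY4, SPRED2, ETV4, ETV5 and PHLDA1 were lower in empty vector replicate 3 than in the mean of the other control libraries by 0.32 to 0.54 on the log2 scale. In overexpression replicate 3, SPRY4, SPRED2, ETV5 and PHLDA1 were lower than the mean of the other overexpression libraries by 0.23 to 0.33, and ETV4 by 0.07. DUSP5, DUSP6, SPRY2 and SPRED1 were instead the highest of their group in empty vector replicate 3. For all 10 members empty vector replicate 3 thus held either the lowest or the highest value of its group, which it did for 84.1% of genes with a mean of at least 10.

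**Figure D2:**
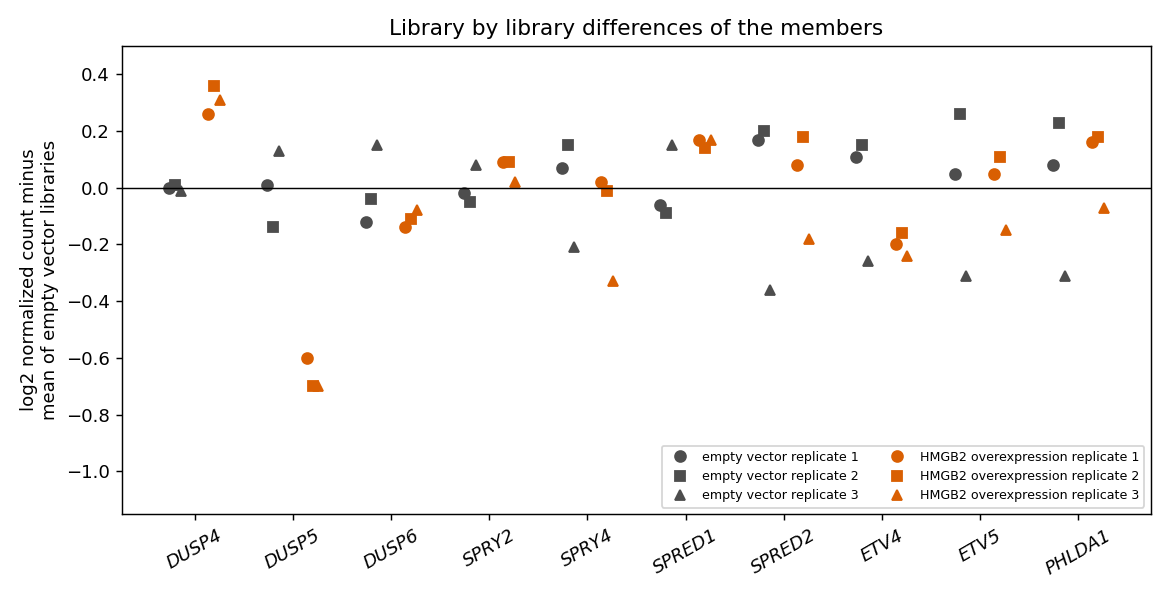
Log2 normalized count of each member in each library, minus the mean of the empty vector libraries (vertical axis). Grey points are empty vector and orange points HMGB2 overexpression libraries, with the replicate given by shape. Triangles (replicate 3) lie below the circles and squares of both groups for SPRY4, SPRED2, ETV4, ETV5 and PHLDA1, whereas the 3 orange points of DUSP5 lie together between -0.70 and -0.60.

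Like the lists below, the list for the cascade was chosen with earlier results of these data known. The cascade itself was examined through 18 genes from RAS to ERK. None was called by DESeq2, none had an unadjusted p under 0.05, and edgeR called 0. The lowest adjusted p was 0.525, the median log2 fold change was 0.02 against 0.00 over all genes tested, and the values ranged from -0.41 to 0.11. BRAF, the kinase mutated in this line, had normalized counts of 2069, 2167 and 1996 with the empty vector and of 2008, 1906 and 1939 with overexpression (log2 fold change -0.09, DESeq2 adjusted p = 0.787). MAPK3, which encodes ERK1, had a log2 fold change of 0.10 (95% interval -0.11 to 0.30).

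Among 20 other negative regulators of the pathway, 3 rose, 2 fell and 15 did not pass the test, with a median log2 fold change of -0.04. Over all genes tested 2.29% were called higher and 2.64% lower, and the median was 0.00. IL17RD, a membrane protein that binds and restrains MEK and ERK complexes, had normalized counts of 241, 237 and 246 with the empty vector and of 408, 404 and 463 with overexpression. The groups did not overlap, and IL17RD rose by 0.82 on the log2 scale (SE 0.14, DESeq2 adjusted p = 2.15e-06) and was called under all 13 alternatives. SPRY1, a further Sprouty gene, had 477, 495 and 481 with the empty vector and 644, 749 and 630 with overexpression. SPRY1 rose by 0.48 on the log2 scale (DESeq2 adjusted p = 0.00849). That call was lost by edgeR (0.0508) and without any library but empty vector replicate 3 (0.054 to 0.27).

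PEBP1, which binds RAF and holds it from MEK, rose by 0.35 (DESeq2 adjusted p = 0.0434). RASA1, a GTPase-activating protein that switches RAS off, fell by 0.39 (0.00104), and PEA15, which keeps ERK in the cytoplasm, fell by 0.30 (0.0341). Groups did not overlap for any of these genes. RASA1 lost its call when empty vector replicate 1 (0.0715) or 2 (0.0868) was left out, and likewise for overexpression replicate 1 (0.137) or 2 (0.136). PEBP1 and PEA15 kept theirs only without empty vector replicate 3 among the fits that left out a library, with adjusted p of 0.242 to 0.473 and 0.226 to 0.457 in the others, and edgeR called neither (0.112 and 0.0968). Neither was called without the independent filter (0.0754 and 0.0593) or in the sum of the stranded columns (0.0557 and 0.074).

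Of 16 kinases and factors on which ERK acts, 2 fell and none rose by DESeq2, 3 had an unadjusted p under 0.05 and edgeR called 1 lower and 0 higher. Over all 18836 genes tested DESeq2 called 930, and 2692 had an unadjusted p under 0.05. The median log2 fold change of the list was -0.07. RPS6KA2, an RSK family kinase activated by ERK, had normalized counts of 2900, 2960 and 1993 with the empty vector and of 1453, 1364 and 879 with overexpression. It was lowest in replicate 3 of both groups, and the groups did not overlap. RPS6KA2 fell by 1.09 (SE 0.21, DESeq2 adjusted p = 2.39e-05) and was called under all 13 alternatives. MKNK2, a kinase that acts on translation downstream of ERK, fell by 0.49 (DESeq2 adjusted p = 0.0107), and edgeR did not call it (0.0725). It was called without empty vector replicate 3 and not without any other single library (0.052 to 0.233). CIC, the repressor whose octamer had a letter match in the DUSP6 window, had 4258, 3887 and 2611 with the empty vector. With overexpression CIC had 3501, 3755 and 3030 (log2 fold change -0.06, DESeq2 adjusted p = 0.940).

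The list of 38 other ERK output genes, drawn from early response genes and genes known to need MEK activity in melanoma, held 8 that fell, 2 that rose and 28 that did not pass. Its median log2 fold change was -0.17, and 26 of 38 values were negative. Over all genes tested 4.94% were called, 9336 of 18836 values were negative and the median was 0.00. The list was chosen with earlier results of these data known, so its counts beside these shares are a description and were not tested. Of the 10 feedback members 1 fell and 1 rose, and the difference between these lists was not tested. LIF, a cytokine, had normalized counts of 4154, 3735 and 3239 with the empty vector and of 1977, 2029 and 1612 with overexpression. It fell by 0.99 (SE 0.14, DESeq2 adjusted p = 1.1e-09), with no overlap of the groups.

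EPHA2, a receptor tyrosine kinase, had 48250, 41541 and 34121 with the empty vector and 25187, 28036 and 21933 with overexpression, and fell by 0.72 (SE 0.15, DESeq2 adjusted p = 0.000192). CXCL8, a chemokine, had 4250, 4428 and 5279 with the empty vector and 2936, 2623 and 3127 with overexpression, and fell by 0.68 (SE 0.13, DESeq2 adjusted p = 1.2e-05). The groups overlapped for neither gene. LIF, EPHA2 and CXCL8 were called under all 13 alternatives.

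CCND1, which encodes a cyclin that drives cells towards S phase, had 28098, 29028 and 16587 with the empty vector and 16840, 17420 and 12851 with overexpression. Its groups overlapped through empty vector replicate 3. CCND1 fell by 0.65 (SE 0.21, DESeq2 adjusted p = 0.0402), neither edgeR (0.155) nor DESeq2 without the independent filter (0.0698) called it, and among fits leaving out a library it was called only without empty vector replicate 3 (2.69e-11), with 0.0501 to 0.332 in the others. FOSL1, an AP-1 subunit, fell by 0.62 (DESeq2 adjusted p = 0.0042), and the stress-induced kinase PLK3 by 0.58 (0.00277). FOSL1 lost its call in edgeR (0.0655) and when empty vector replicate 1 (0.0904), empty vector replicate 2 (0.0725) or overexpression replicate 3 (0.073) was left out. For PLK3 the call was lost in edgeR (0.0508) and on leaving out empty vector replicate 1 (0.106), overexpression replicate 2 (0.069) or overexpression replicate 3 (0.0591).

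The other calls of this list are named after their values were seen. B4GALT6, a glycosyltransferase, rose by 0.44 (DESeq2 adjusted p = 0.000252) and lost its call without overexpression replicate 1 (0.105). HMGA2, a chromatin protein, rose by 0.36 (0.0237) and lost its call in edgeR (0.0861) and without empty vector replicate 1 (0.378) or any overexpression library (0.237 to 0.251). SLC1A5, a glutamine transporter, fell by 0.58 (0.000161) and was called under all 13 alternatives. MAFF, a basic leucine zipper factor, fell by 0.40 (0.0135) and lost its call in edgeR (0.0697) and without any library but empty vector replicate 3 (0.136 to 0.333).

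**Figure D3:**
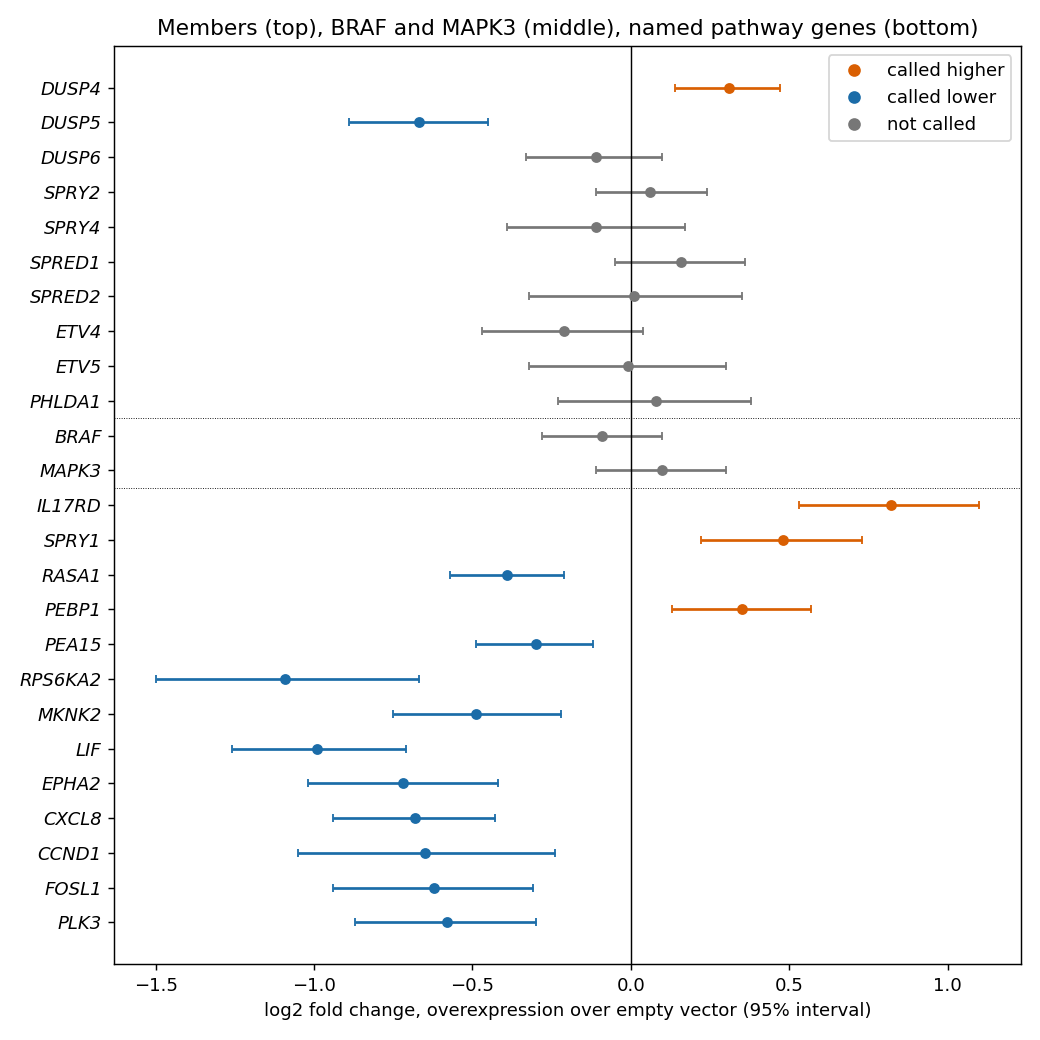
Log2 fold change of overexpression over empty vector (horizontal axis) with its 95% interval from DESeq2. The members are at the top, BRAF and MAPK3 in the middle, and the named genes of the pathway lists at the bottom, with orange for called higher, blue for called lower and grey for not called. DUSP5 (-0.67) and DUSP4 (0.31) are the coloured members, and the grey intervals cross 0.

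**Figure D4:**
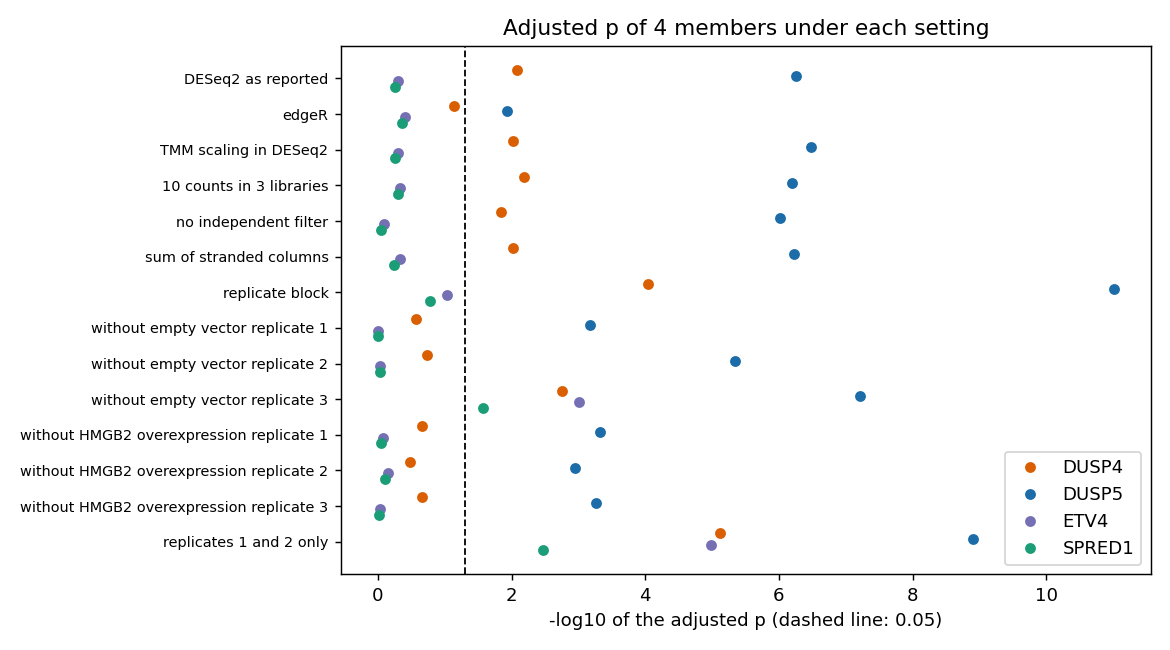
Adjusted p as -log10 (horizontal axis) of DUSP4, DUSP5, ETV4 and SPRED1 under each setting (vertical axis), with the threshold of 0.05 as a dashed line. DUSP5 lies to the right of the line in every row, DUSP4 lies to the left of it in 6 rows, and ETV4 and SPRED1 pass it only without empty vector replicate 3 and in replicates 1 and 2 alone.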

How the data were processed

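The 6 libraries of A375 RNA were grouped by the genotype in the labels. The authors trimmed reads with Trimmomatic and aligned them with STAR to GRCh38 (STAR version and annotation release not given in the sources used here). They deposited raw counts per gene as whole numbers, without normalization. A read counts when it maps to 1 place and to 1 gene, and the column for either strand was used. The strand-specific columns held near equal counts (50.1% to 50.2% in the first), so they do not tell the strand of a transcript. Multimapped reads (10.6% in overexpression replicate 3 and 2.58% to 4.89% in the other libraries) and ambiguous reads (10.7% to 11.4%) enter no gene. Symbols came from GENCODE 44, which held 57532 of the 58302 IDs.

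Groups were compared with DESeq2 1.42.0 in R 4.3.3 (Wald test, default filter), after the study's methods, on all genes. Calls required a p under 0.05 after Benjamini-Hochberg adjustment. EdgeR 4.0.16 was an alternative. The fits were tested on simulated data. Exon lengths, overlaps and 50-base words came from GENCODE. The members and gene lists were chosen with earlier results of these data known. Named were HMGB2, the members, BRAF, MAPK3 and, per pathway list, up to 6 called genes with a mean of at least 50, by size of change. Some genes of the rule and lists are not reported here.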

Additional observations from a re-analysis of the deposited data

How the results depend on the processing

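HMGB2 and DUSP5 kept direction and call under all 13 alternatives. With edgeR 0 members were called higher, and the counts over all genes were 215 higher and 255 lower and over the pathway lists 2 and 6. With replicates 1 and 2 alone 2 members were called higher and 2 lower, 1203 and 1418 of all genes, and 23 pathway genes lower. Fits that left out 1 library gave 0 to 2 members higher and 1 to 2 lower, 155 to 1334 genes higher and 208 to 1520 lower, and 1 to 6 pathway genes higher and 5 to 21 lower. The highest counts came without empty vector replicate 3, and the cause was not tested. A DESeq2 fit with the replicate number as a replicate block called 886 genes higher and 940 lower and 19 pathway genes lower. The labels do not say what a number shares. Deviations from the group means correlated by 0.09, 0.14 and 0.35 within equal numbers over 16692 genes. Replicate 3 of each group correlated by -0.27 to -0.14 with replicates 1 and 2 of the other group. Empty vector replicate 1 correlated best with overexpression replicate 2 (0.21), so the numbers were not taken as pairs. What the third replicates share was not tested. Log2 fold changes changed sign for SPRED2 (-0.15 to 0.11 when 1 library was left out, with the lowest without empty vector replicate 3, -0.05 in replicates 1 and 2 alone), ETV5 (-0.15 to 0.12 when 1 library was left out) and PHLDA1 (-0.06 in the sum of stranded columns, -0.06 to 0.20 when 1 library was left out). None of these values was called. TMM scaling shifted log2 fold changes by a median of -0.004 over genes with a mean of at least 10. The precision is limited by 3 libraries a group, which may be technical replicates, and not by depth.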
